A study of Mus musculus with 9 samples.

Results

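The genes described here are 10 members of the piRNA pathway, namely the Piwi genes Piwil1, Piwil2 and Piwil4, the germ granule genes Mael, Tdrd1, Tdrd9, Ddx4 and Asz1, and the zinc finger genes Gtsf1 and Gtsf1l. They were taken by name, and every probe set that the platform annotation assigned to 1 of these symbols alone was included, which gave 13 of the 45101 probe sets and 10 of the 18194 singly named genes on the array. The cells were labelled as spermatogonia and came from adult Balb/C mice. RNA levels were read in 3 groups of 3 Affymetrix arrays each. The mice had been fed a vitamin A-deficient (VAD) diet for 18 weeks, that diet for 25 weeks, or a control diet. Testes of 2 mice went into a preparation, the dissociated cells were plated overnight, and the unattached germ cells were sorted by sedimentation speed and taken as spermatogonia from their size and morphology. The age of the control mice is not given, nor whether each array held its own preparation, so the p-values measure the spread between these arrays, which may be technical.

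Piwi-interacting RNAs (piRNAs) are short RNAs of the germ line that guide Piwi proteins to transposon transcripts and other targets. They are cut from long precursor transcripts, trimmed at their 3′ ends and loaded onto Piwi proteins in germ granules near mitochondria, where Tudor domain proteins hold Piwi proteins by their methylated arginines. In the mouse testis a first set of piRNAs is made in fetal germ cells and a second, abundant set during meiosis, at pachytene, under the transcription factor A-MYB (encoded by Mybl1). Retinoic acid, made from vitamin A, sends undifferentiated spermatogonia into differentiation and meiosis. In whole-preparation RNA, a change in the share of a cell type and a change in the RNA of each cell cannot be told apart.

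The promoters of 3 members whose levels changed are shown, because each holds a match to a motif of a factor of this pathway or of retinoid signalling. The sequences are the 250 bases before the annotated start in RefSeq on build GRCm38.p6, written 5′ to 3′ on the gene's strand, with the matches in capitals. The Piwil1 promoter lies at chr5:128735996-128736245 on the plus strand, that of Tdrd9 at chr12:111971309-111971558 on the plus strand, and that of Gtsf1l at chr2:163089602-163089851 on the minus strand.
Piwil1: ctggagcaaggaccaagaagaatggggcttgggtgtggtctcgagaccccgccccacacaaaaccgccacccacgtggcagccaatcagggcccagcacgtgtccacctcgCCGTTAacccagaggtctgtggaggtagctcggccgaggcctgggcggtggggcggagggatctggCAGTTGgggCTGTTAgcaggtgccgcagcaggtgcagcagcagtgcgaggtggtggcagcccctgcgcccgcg
Tdrd9: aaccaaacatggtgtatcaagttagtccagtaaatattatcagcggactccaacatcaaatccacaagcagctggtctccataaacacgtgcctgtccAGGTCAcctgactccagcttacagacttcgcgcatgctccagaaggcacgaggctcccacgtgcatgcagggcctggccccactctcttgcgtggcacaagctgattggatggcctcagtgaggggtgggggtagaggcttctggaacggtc
Gtsf1l: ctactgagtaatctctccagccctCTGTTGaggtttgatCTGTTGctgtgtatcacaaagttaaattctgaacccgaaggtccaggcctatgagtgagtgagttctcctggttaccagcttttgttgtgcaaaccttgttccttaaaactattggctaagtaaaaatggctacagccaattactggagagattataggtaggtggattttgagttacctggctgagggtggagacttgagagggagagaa

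The motifs searched on both strands were CNGTTA and a second form that ends in G, written CNGTTG, which MYB family factors bind. The motif of the meiotic factor STRA8, CNCCTCAG, was searched too, as was the half-site of retinoid receptors, AGGTCA. Of the 10 members, 9 had a promoter entry, with 12 entries in all. Piwil2 had none, so its promoter was not searched. Piwil1 held 3 MYB motifs, with CCGTTA beginning 139 bases before the start, with CAGTTG at 73 bases and with CTGTTA at 64 bases. Gtsf1l, which moved the other way, held CTGTTG at 226 and 211 bases, and Tdrd9 held AGGTCA at 152 bases. An MYB motif was found in 3 members (Piwil1, Piwil4 and Gtsf1l), and either form of it occurs in 43.1% of 32851 RefSeq promoters of that length. AGGTCA was found in 1 member and occurs in 14% of promoters, whereas CNCCTCAG, found in 6.42% of promoters, was in 0 of the 9. No match overlapped another, and a match is a description of letters only.

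Levels are given as log2 of the deposited signal plus a pseudocount, quantile normalized between arrays, and are compared between arrays for 1 probe set at a time. A pair of arrays, VAD 25-week replicate 3 and control replicate 3, stood apart from the rest. Their trimmed mean signals were 23.3 and 23.0, whereas the other 7 had 55.6 to 186, and they correlated with each other at 0.889 but with the others at 0.776 to 0.809. The model therefore holds a term for this low-signal pair. For each called member and each other pathway gene named as called, the adjusted p without the term and the value without the pair are also given. VAD 25-week replicates 1 and 2 stood apart too, with a mean signal of the poly-A control probe sets of 270 and 338, against 4.97 to 10.6 on the other 7 arrays, and the highest trimmed means (186 and 144). Outside the low-signal pair the VAD 25-week group consists of these 2 arrays, so there diet and this difference cannot be told apart. Within the pair, where the poly-A mean was 5.57 on the VAD and 4.97 on the control array, the VAD 25-week minus control difference is given for each called member. Of the 13 member probe sets, 11 passed the filter on low signal, with both Piwil4 probe sets below it. All adjusted p-values are from limma with Benjamini-Hochberg adjustment over 27022 probe sets, errors are standard errors of the model, and 3 arrays a group limit every value.

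At 18 weeks of VAD the levels of Piwil1, Piwil2 and Tdrd9 rose, and at 25 weeks those of Piwil1, Piwil2, Tdrd9 and 1 Asz1 probe set rose while 1 Gtsf1 probe set and Gtsf1l fell. Ddx4, Mael and Tdrd1 passed the test at neither time. At 18 weeks 3 of the 11 probe sets were called, 3 higher and 0 lower, where 1.46% of all probe sets were called, 1.32% higher and 0.133% lower. At 25 weeks 6 of 11 were called, 4 higher and 2 lower, against a background of 14.8%, of which 8.51% were higher and 6.29% lower. The median log2 difference over the 11 was 0.0077 at 18 weeks and 0.15 at 25 weeks, and over all probe sets it was -0.0082 and -0.0094. Without the term for the pair, 0 of 11 were called at either time, with 3 and 6 at an unadjusted p under 0.05, where 0% of all probe sets were called and 7.23% and 11.9% reached that unadjusted p. Without the pair of arrays 4 and 6 were called, against 3.97% and 15.8% of all probe sets. Leaving out control replicate 1 or control replicate 2 left 1 call at 18 weeks, and leaving out control replicate 1 left 3 at 25 weeks. Over all probe sets these 2 settings left 37 and 38 calls at 18 weeks, against 394 with all arrays. On the deposited scaling, where the median of all probe sets was 0.93 higher at 25 weeks, the 25-week differences of Piwil1, Piwil2, Tdrd9 and Asz1 1424939_at were 2.01, 1.74, 1.53 and 1.81.

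**Figure D1:**
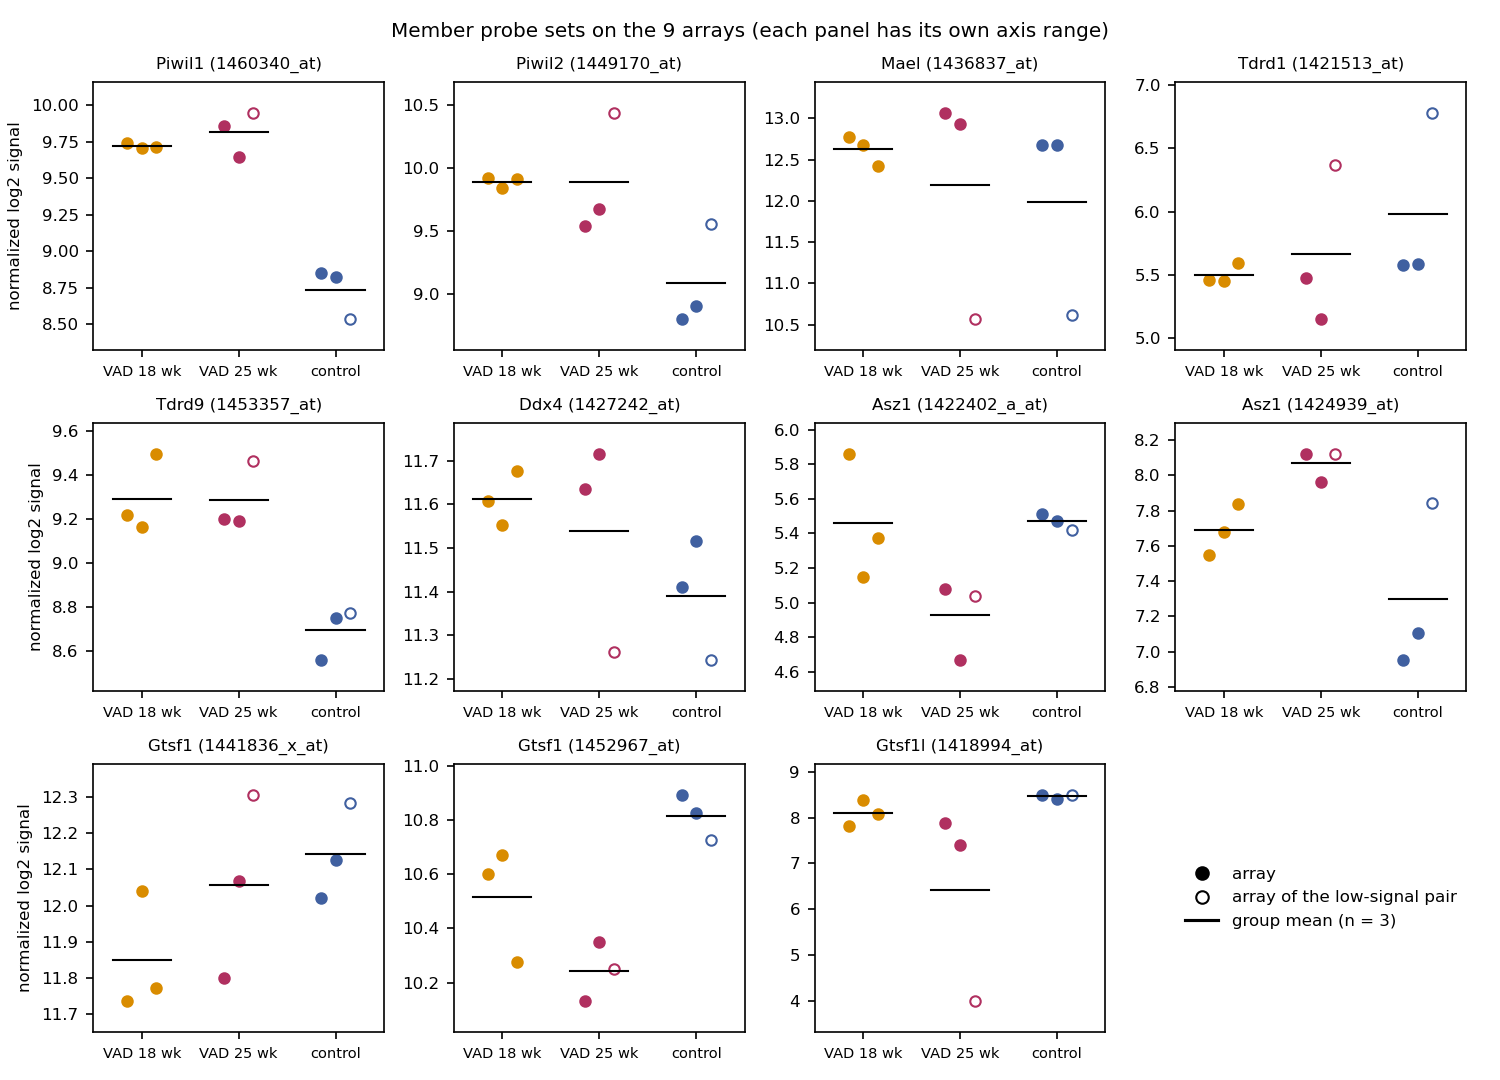
Normalized log2 signal of each member probe set (vertical axes) on each of the 9 arrays, with VAD 18-week, VAD 25-week and control arrays from left to right, a bar for each group mean, and open points for the low-signal pair. Piwil1 and Tdrd9 lie above the control arrays on every VAD array, and Gtsf1l is at 3.98 on VAD 25-week replicate 3, against 7.39 and 7.89 on the other 25-week arrays.

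Among the Piwi genes, Piwil1 encodes MIWI, which carries pachytene piRNAs in spermatocytes and round spermatids. Its normalized log2 level was 9.74, 9.71 and 9.71 on the VAD 18-week arrays, 9.86, 9.64 and 9.95 on the VAD 25-week arrays, and 8.85, 8.82 and 8.53 on the control arrays. Every VAD array was above every control array, and the VAD 18-week arrays had an SD of 0.017. Piwil1 was 0.97 ± 0.14 higher at 18 weeks (1.95-fold, adjusted p = 0.00955, 0.273 without the term for the pair) and 1.08 ± 0.13 higher at 25 weeks (2.11-fold, adjusted p = 0.000824, 0.106 without the term). On the 7 arrays outside the pair it was 0.87 higher at 18 weeks (adjusted p = 0.0037) and 0.90 higher at 25 weeks (adjusted p = 0.00162). Within the pair, VAD 25-week replicate 3 was 1.41 above control replicate 3. Leaving out control replicate 1 or control replicate 2 ended the 18-week call narrowly (1.03, adjusted p = 0.0504, and 1.01, adjusted p = 0.0528), and no single array ended the 25-week call.

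Piwil2 encodes MILI, which acts from fetal germ cells onward, binds piRNAs before and during pachytene, and feeds piRNA amplification with its slicer activity. Its log2 level was 9.92, 9.84 and 9.91 on the VAD 18-week arrays, 9.54, 9.68 and 10.44 on the VAD 25-week arrays, and 8.80, 8.91 and 9.56 on the control arrays. The 18-week arrays lay above all control arrays, whereas control replicate 3, of the low-signal pair, was level with the lowest 25-week array. Piwil2 was 1.06 ± 0.11 higher at 18 weeks (2.08-fold, adjusted p = 0.0027, 0.626 without the term) and 0.80 ± 0.11 higher at 25 weeks (1.74-fold, adjusted p = 0.00153, 0.307 without the term). Without the pair of arrays these differences were 1.02 (adjusted p = 0.0016) and 0.75 (adjusted p = 0.00351), and within the pair the VAD 25-week array was 0.88 above the control array. Both calls held with each array left out in turn.

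Piwil4 encodes MIWI2, the nuclear Piwi protein of fetal germ cells that directs DNA methylation to transposons. Its probe set 1439716_at read 2.95, 2.31 and 3.61 on the VAD 18-week arrays, 2.17, 2.55 and 4.67 on the VAD 25-week arrays, and 2.75, 2.99 and 3.88 on the control arrays. Its probe set 1447564_x_at read 2.31, 2.94 and 2.29 on the VAD 18-week arrays, 3.01, 2.81 and 2.75 on the VAD 25-week arrays, and 1.85, 2.67 and 3.29 on the control arrays. The groups overlapped in both probe sets, and as a signal of 0 reads 1.70 on this scale before normalization, all these values are near its lower end. Neither was tested.

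Mael, Tdrd1 and Ddx4 did not pass the test in any of the comparisons, although Mael did with array weights at 25 weeks (0.29, adjusted p = 0.0437) and between 25 and 18 weeks (0.35, adjusted p = 0.0483). Ddx4 is the mouse vasa gene, an RNA helicase of germ granules that is used as a marker of germ cells. Its log2 level was 11.61, 11.55 and 11.68 on the VAD 18-week arrays, 11.64, 11.72 and 11.26 on the VAD 25-week arrays, and 11.41, 11.52 and 11.24 on the control arrays. The groups overlapped at 25 weeks, while at 18 weeks the lowest VAD array, at 11.55, lay just above the highest control array, at 11.52. Ddx4 differed from control by 0.12 at 18 weeks (95% interval -0.097 to 0.33, adjusted p = 0.587) and by 0.15 at 25 weeks (-0.053 to 0.35, adjusted p = 0.307), and its direction at 18 weeks was the opposite after median centring. Mael, a high mobility group protein needed for transposon silencing in meiosis, was at 12.77, 12.67 and 12.42 on the VAD 18-week arrays, 13.07, 12.93 and 10.56 on the VAD 25-week arrays, and 12.67, 12.67 and 10.62 on the control arrays. Both low-signal arrays were far below the other 7. Mael differed from control by -0.11 (95% interval -0.38 to 0.15) at 18 weeks and by 0.20 (-0.051 to 0.45) at 25 weeks.

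Tdrd1 encodes a protein of several Tudor domains that binds MILI in the granules between mitochondria. Its log2 level was 5.46, 5.45 and 5.59 on the VAD 18-week arrays, 5.47, 5.15 and 6.37 on the VAD 25-week arrays, and 5.58, 5.58 and 6.78 on the control arrays, and here the low-signal arrays were the highest. Tdrd1 differed from control by -0.11 (95% interval -0.56 to 0.35) at 18 weeks and by -0.32 (-0.75 to 0.11) at 25 weeks. These intervals still allow a decrease or an increase, and the deposited scaling turned both values positive.

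Tdrd9, which joins a Tudor domain to an RNA helicase and partners MIWI2 in fetal germ cells, was at 9.22, 9.16 and 9.50 on the VAD 18-week arrays, 9.20, 9.19 and 9.46 on the VAD 25-week arrays, and 8.55, 8.75 and 8.77 on the control arrays. All VAD arrays were above all control arrays. Tdrd9 was 0.67 ± 0.14 higher at 18 weeks (1.59-fold, adjusted p = 0.0401, 0.59 without the term) and 0.59 ± 0.13 higher at 25 weeks (1.51-fold, adjusted p = 0.0122, 0.27 without the term). The 18-week call held in 7 of 21 alternative settings, with the same direction in all 21. It was lost without any 1 of the 7 arrays outside the pair, where the difference was 0.56 to 0.75 and the adjusted p 0.0765 to 0.172. The 25-week call held in 17 of 21 settings and was lost without control replicate 1 (0.55, adjusted p = 0.0546). On the 7 arrays outside the pair the differences were 0.64 (adjusted p = 0.0292) and 0.55 (adjusted p = 0.0313), and within the pair the VAD 25-week array was 0.69 above the control array.

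Asz1 encodes GASZ, a protein of the mitochondrial outer membrane that holds the germ granules together, and its 2 probe sets disagreed. Probe set 1424939_at read 7.55, 7.68 and 7.84 on the VAD 18-week arrays, 8.12, 7.96 and 8.12 on the VAD 25-week arrays, and 6.95, 7.11 and 7.84 on the control arrays. At 25 weeks it was 0.77 ± 0.18 higher (1.70-fold, adjusted p = 0.0154, 0.293 without the term), and at 18 weeks 0.54 ± 0.19 (adjusted p = 0.184), which passed without the pair of arrays (0.69, adjusted p = 0.0363). Without the pair the 25-week difference was 1.06 (adjusted p = 0.00333), and within the pair it was 0.28. The call was lost without VAD 25-week replicate 1 or control replicate 1 (0.65 each, adjusted p = 0.0773 and 0.0698) and without VAD 25-week replicate 2 or control replicate 2 (0.74 each, adjusted p = 0.0646 and 0.0543). Probe set 1422402_a_at read 5.86, 5.15 and 5.38 on the VAD 18-week arrays, 5.08, 4.66 and 5.04 on the VAD 25-week arrays, and 5.51, 5.47 and 5.42 on the control arrays. Its 25-week arrays were all below the control arrays, but the difference of -0.54 ± 0.25 did not pass (adjusted p = 0.167). Whether both probe sets report the same transcripts was not tested.

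**Figure D2:**
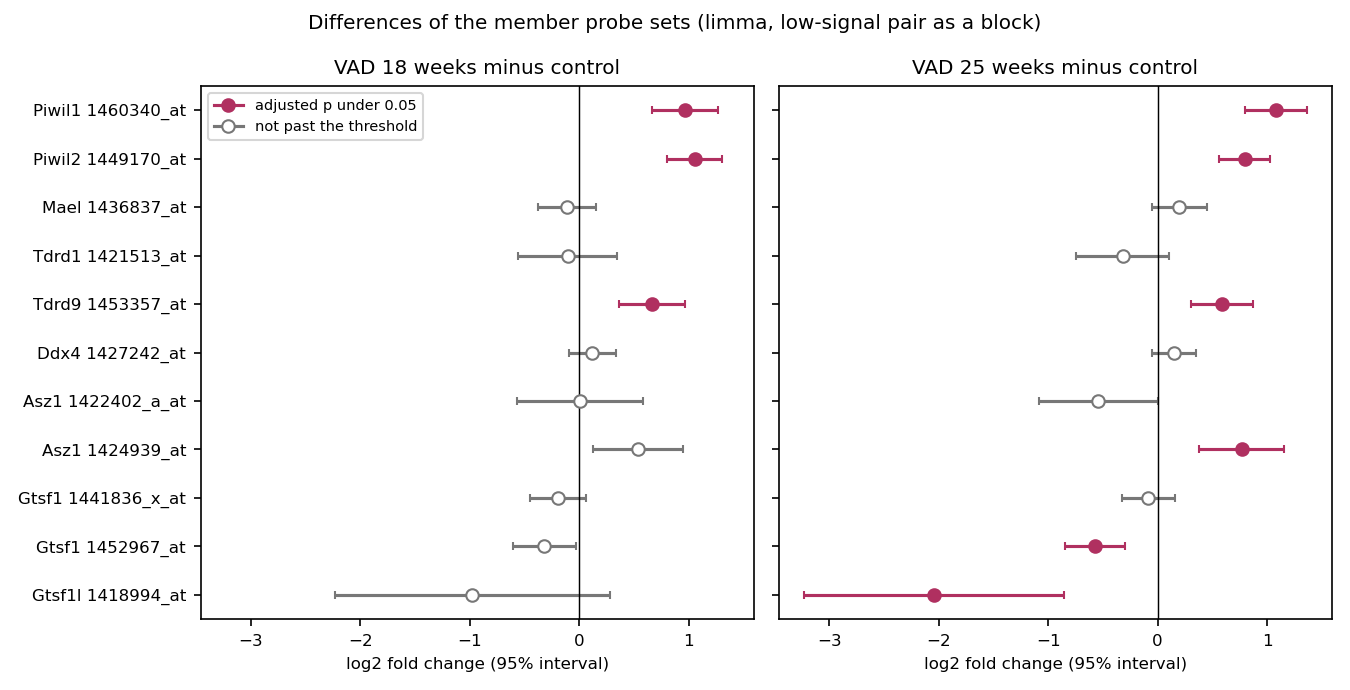
Log2 difference of each member probe set from control (horizontal axis) at 18 and 25 weeks of VAD with 95% intervals of the model, filled where the adjusted p is under 0.05. Piwil1, Piwil2 and Tdrd9 are filled and positive at both times, and Gtsf1l at 25 weeks is lowest, with an interval from -3.23 to -0.86.

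Gtsf1 encodes a small zinc finger protein that binds Piwi proteins and promotes their slicing, and Gtsf1l is its paralogue. Gtsf1 probe set 1452967_at read 10.60, 10.67 and 10.27 on the VAD 18-week arrays, 10.13, 10.35 and 10.25 on the VAD 25-week arrays, and 10.90, 10.83 and 10.73 on the control arrays. Every VAD array was below every control array. It fell by 0.57 ± 0.12 at 25 weeks (0.672 of the control level, adjusted p = 0.0117, 0.249 without the term), with -0.48 within the pair and -0.60 without it (adjusted p = 0.0168). The call was lost without VAD 25-week replicate 1 (-0.50, adjusted p = 0.0587) or control replicate 1 (-0.54, adjusted p = 0.0528). At 18 weeks the difference of -0.32 ± 0.13 did not pass (adjusted p = 0.253). The 25-week direction depended on the scaling, since on the deposited scale, where the median of all probe sets was 0.93 higher, this probe set was 0.27 higher. Gtsf1 probe set 1441836_x_at, of a type prone to cross-hybridisation, read 11.74 to 12.04 on the VAD 18-week arrays, 11.80 to 12.31 on the VAD 25-week arrays and 12.02 to 12.28 on the control arrays. The groups overlapped, and its 25-week difference was -0.085 (adjusted p = 0.646).

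Gtsf1l was at 7.82, 8.39 and 8.08 on the VAD 18-week arrays, 7.89, 7.39 and 3.98 on the VAD 25-week arrays, and 8.50, 8.41 and 8.49 on the control arrays. All VAD arrays were below all control arrays, and VAD 25-week replicate 3 was far below the rest, with a deposited signal of 8.08 against 111 on the control array of the same pair. Gtsf1l fell by 2.04 ± 0.54 at 25 weeks (adjusted p = 0.0277, 0.366 without the term). Without the pair of arrays the difference was -0.84 (adjusted p = 0.0262), and within the pair it was -4.50, so that 1 array set the size but the call held without it. The call was lost without VAD 25-week replicate 2 (-2.22, adjusted p = 0.0536). At 18 weeks the difference was -0.98 ± 0.58 (adjusted p = 0.43), and -0.37 without the pair.

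Between 25 and 18 weeks of VAD, 0 of 11 member probe sets were called, as 0% of all probe sets were, and without the pair of arrays 0 were called, against 1.64% of all probe sets. Without the term 0 reached an unadjusted p under 0.05, against 3.82%. With the term, 2 reached an unadjusted p under 0.05, against 11.6% of all probe sets, namely Piwil2 at -0.26 (95% interval -0.51 to -0.0098) and Mael at 0.31 (0.047 to 0.58), and the smallest adjusted p over the members was 0.347. The 95% intervals were -0.19 to 0.42 for Piwil1, -0.37 to 0.23 for Tdrd9 and -2.33 to 0.19 for Gtsf1l. The comparisons at 18 and 25 weeks share their control arrays and are not independent of each other. Between VAD and control, 6 of 11 member probe sets had groups that did not overlap at each time, against 19.3% and 16.2% of all probe sets.

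To set the members against germ cell RNA without any normalization between arrays, each deposited signal was divided by that of Ddx4 on the same array, a comparison chosen after the values were seen and given with no test. The mean log2 ratio to Ddx4 was 0.94 higher for Piwil1 at 18 weeks of VAD than in control and 1.11 higher at 25 weeks. For Piwil2 these differences were 0.74 and 0.83, and for Tdrd9 0.59 and 0.63. The ratio for Gtsf1 1452967_at was -0.46 and -0.65 from control, and that for Gtsf1l -0.37 and -1.78. The groups did not overlap for 5 of 10 probe sets at 18 weeks (16.4% of all probe sets) and for 6 of 10 at 25 weeks (15.5%). The higher ones were Piwil1, Piwil2 and Tdrd9 at 18 weeks, joined by Asz1 1424939_at at 25 weeks. The lower ones were both Gtsf1 probe sets at 18 weeks, and Gtsf1 1452967_at and Gtsf1l at 25 weeks. A ratio shows only that the members and Ddx4 changed unequally.

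**Figure D3:**
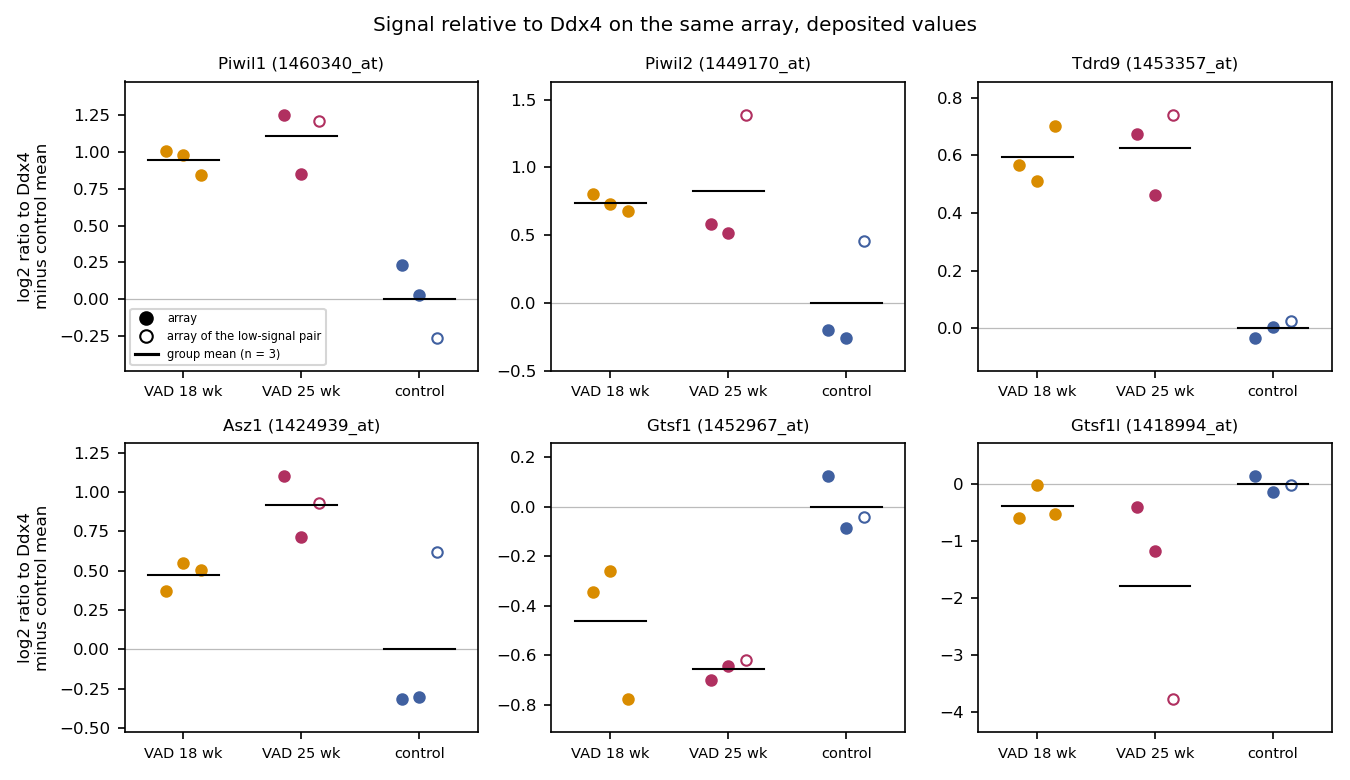
Log2 ratio of the deposited signal of 6 member probe sets to that of Ddx4 on the same array, minus the control mean (vertical axis), for VAD 18-week, VAD 25-week and control arrays, with open points for the low-signal pair. Piwil1, Piwil2 and Tdrd9 lie above 0 on the VAD arrays, with mean differences of 1.11, 0.83 and 0.63 at 25 weeks, and Gtsf1l lies lowest on VAD 25-week replicate 3.

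Of 28 other genes of the pathway, 23 were measured and passed the filter, and Tdrd6, Tdrd15, Fkbp6, Spocd1 and Gtsf2 were not analysed here. At 18 weeks 3 of 23 rose and 0 fell, with a median difference of 0.18, where 1.51% of all named genes were called. At 25 weeks 8 rose and 1 fell, with a median of 0.40, where 17% of named genes were called, and between 25 and 18 weeks 0 were called. These counts changed when 1 array was left out, as did those over all probe sets. At 18 weeks 0 were called without control replicate 1, without control replicate 2 or without any 1 of the VAD 18-week arrays. In those settings 37 to 192 of all probe sets were called, against 394 with all arrays. Without VAD 25-week replicate 1 or 2 the pathway count at 18 weeks was 1, with 149 and 138 calls over all probe sets. At 25 weeks, leaving out 1 array gave 1788 to 4173 calls over all probe sets, against 3999. Of the 23, 3 were called at 25 weeks without VAD 25-week replicate 1, and 4 without VAD 25-week replicate 2 or control replicate 1. Without the term for the pair 0 were called in each comparison, and without the pair of arrays 4 at 18 weeks, 7 at 25 weeks and 1 between 25 and 18 weeks. On the deposited scaling 0 were called at 18 weeks and 16 at 25 weeks, where the median of all probe sets was itself 0.93 higher. Stk31, which encodes a Tudor domain protein with a kinase-like region, was at 8.93, 8.60 and 8.72 on the VAD 18-week arrays, 9.68, 9.65 and 8.12 on the VAD 25-week arrays, and 7.63, 7.68 and 6.68 on the control arrays. It was 1.001 ± 0.16 higher at 18 weeks (adjusted p = 0.0157) and 1.82 ± 0.15 higher at 25 weeks (adjusted p = 0.000174), and every VAD array was above every control array. The adjusted p without the term was 0.567 and 0.164, and without the pair Stk31 was 1.13 higher (adjusted p = 0.00248) and 2.03 higher (adjusted p = 0.00011). Its difference between 25 and 18 weeks, 0.82 ± 0.16, did not pass (adjusted p = 0.138), but passed on the 7 arrays outside the pair (0.90, adjusted p = 0.0214).

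Pnldc1, Gpat2 and, at 25 weeks, Pld6 also rose. Pnldc1, the exonuclease that trims piRNA 3′ ends, was 1.29 ± 0.26 higher at 18 weeks (adjusted p = 0.0383) and 1.09 ± 0.25 higher at 25 weeks (adjusted p = 0.014). It was at 6.18, 6.13 and 6.33 on the VAD 18-week arrays, 5.98, 5.72 and 5.56 on the VAD 25-week arrays, and 4.93, 5.23 and 3.82 on the control arrays. Pld6, the mitochondrial endonuclease that opens precursor transcripts, was 0.83 ± 0.19 higher at 25 weeks (adjusted p = 0.0156) and 0.73 ± 0.20 at 18 weeks (adjusted p = 0.107). Gpat2, a mitochondrial protein that binds MILI, was 0.70 ± 0.14 higher at 18 weeks (adjusted p = 0.0387) and 0.67 ± 0.14 higher at 25 weeks (adjusted p = 0.00892). Without the pair Pnldc1 was 1.24 higher at 18 weeks (adjusted p = 0.0126) and 0.84 higher at 25 weeks (adjusted p = 0.0317), Gpat2 was 0.72 higher (adjusted p = 0.0203) and 0.65 higher (adjusted p = 0.0156), and Pld6 was 1.01 higher at 25 weeks (adjusted p = 0.0137). Without the term the adjusted p was 0.391 and 0.291 for Pnldc1, 0.468 and 0.245 for Gpat2, and 0.232 for Pld6 at 25 weeks.

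At 25 weeks Morc1 rose and Dnmt3l fell. Morc1, needed for transposon repression in fetal germ cells, was at 5.96, 6.19 and 4.09 on the VAD 25-week arrays, against 5.05, 5.01 and 3.55 on the control arrays. The groups overlapped, since VAD 25-week replicate 3 was below control replicates 1 and 2, though above the control array of its pair. Morc1 was 0.87 ± 0.24 higher (adjusted p = 0.0299, 0.646 without the term) and 1.15 higher without the pair (adjusted p = 0.0119). Dnmt3l, the cofactor of the DNA methyltransferases that mark transposons, fell by 1.59 ± 0.41 (adjusted p = 0.0258, 0.345 without the term), at 4.85, 4.69 and 2.24 on the VAD 25-week arrays, against 5.51, 5.56 and 5.46 on the control arrays. As with Gtsf1l, VAD 25-week replicate 3 was the lowest, and without the pair the Dnmt3l difference was -0.85 (adjusted p = 0.0504), which did not pass. Mybl1, named here after its values were seen because its motif was searched, differed from control by -0.31 at 18 weeks (adjusted p = 0.55) and by -0.062 at 25 weeks (adjusted p = 0.879).

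**Figure D4:**
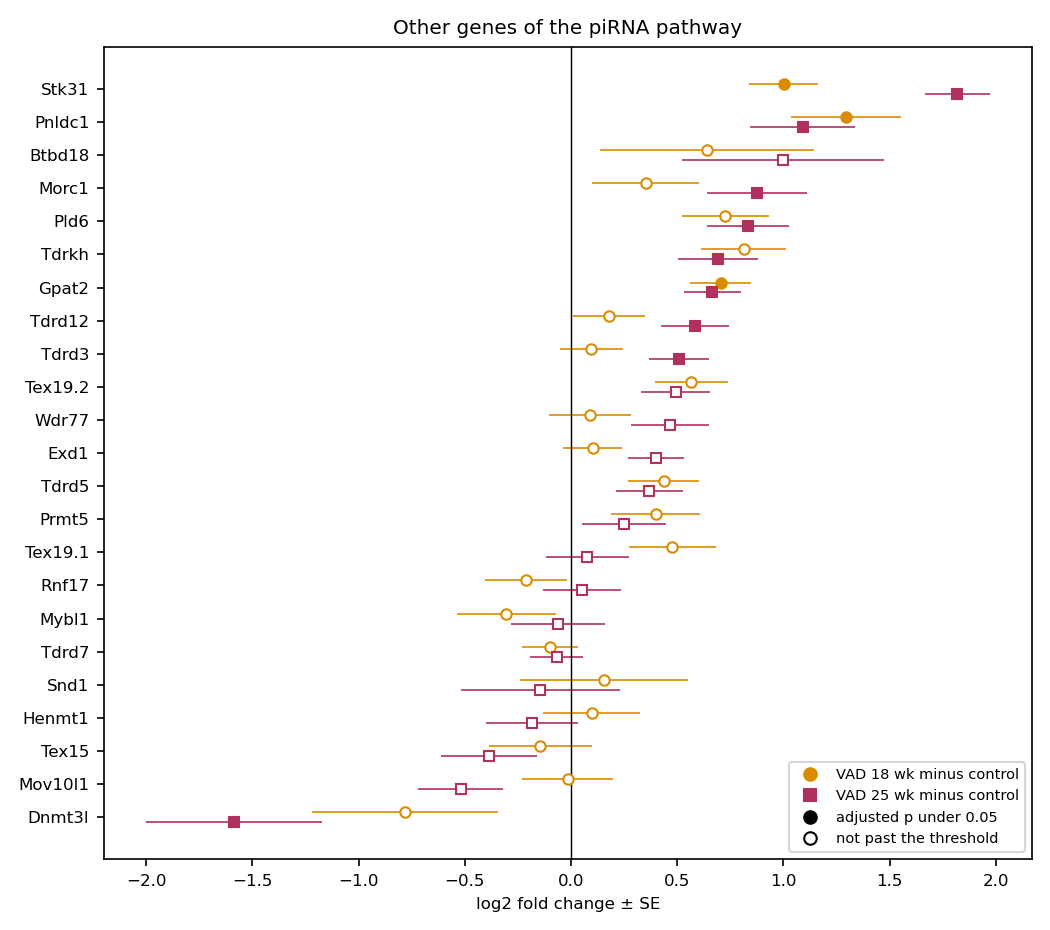
Log2 difference from control of the 23 other measured piRNA pathway genes (1 row per gene) at 18 and 25 weeks of VAD with bars of 1 standard error, filled where the adjusted p is under 0.05. Stk31 is highest at 25 weeks, at 1.82, and Dnmt3l is lowest, at -1.59.

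Markers of other cell types were counted in the same comparisons. Only those of Sertoli cells had sums that were apart from control at both times. Leydig cell sums were apart at 25 weeks only, at 284 to 314 against 45.4 to 145 on the control arrays. Of 5 macrophage markers, 4 rose at 25 weeks, though their sums overlapped control. Over all named genes, 1.51% were called at 18 weeks and 17% at 25 weeks. Of 15 Sertoli cell markers that passed the filter, of 18 on the array, 7 rose at 18 weeks and 11 at 25 weeks, with 0 lower, and Sox9, Amh and Gstm6 were below the filter. Their summed normalized signal was 872 to 2586 on the VAD 18-week arrays, 1106 to 1971 on the VAD 25-week arrays and 293 to 369 on the control arrays. Of 13 pachytene spermatocyte markers, 2 rose at 18 weeks, and 3 rose and 2 fell at 25 weeks, with summed signals of 31846 to 33093 on the VAD 18-week arrays, 26618 to 30171 on the VAD 25-week arrays and 27607 to 33620 on the control arrays. Of 14 spermatid markers, 0 were called at 18 weeks and 4 fell at 25 weeks, and their sums were 9153 to 14835 on the VAD 18-week arrays, 5524 to 17639 on the VAD 25-week arrays and 8519 to 18840 on the control arrays. Without the term 0 markers of any list were called. Without the pair 9 Sertoli cell markers were called at each time, 3 pachytene markers at 18 weeks and 5 at 25 weeks, and 0 and 4 spermatid markers. Of all probe sets, 3.97% and 15.8% were called without the pair. The part of these cell types in the results for the members was not tested.

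Of the markers of the labelled cell type, 9 of 10 genes of differentiating spermatogonia and 7 of 14 genes of undifferentiated spermatogonia passed the filter, which kept 59.9% of all probe sets, with Ret, Lin28a, Sall4, Eomes, Pax7, Upp1 and Cdh1 below it. Of the 7, 1 (Id4) rose at each time, where 1.51% and 17% of all named genes were called. The sums of the 7 were 580 to 721 on the VAD 18-week arrays and 700 to 801 on the VAD 25-week arrays. On the control arrays they were 397 to 476. The mean log2 level of the 7 did not separate the groups as the sums did. Replicate 3 of the VAD 18-week and VAD 25-week groups, at 4.63 and 4.48, lay below the control arrays (4.85 to 4.94). The other VAD arrays lay above them. The median log2 difference of the 7 from control was -0.0074 at 18 weeks and 0.13 at 25 weeks. Of the 9 markers of differentiating spermatogonia, 0 were called at 18 weeks. At 25 weeks Kit rose and Dmrtb1 fell, where 17% of all named genes were called. The sums of the 9 were 1321 to 1329 on the VAD 18-week arrays, 649 to 921 on the VAD 25-week arrays and 907 to 1821 on the control arrays. The mean log2 level of the 9 did not follow the sums at 25 weeks. It was 4.65 to 5.02 on the VAD 18-week arrays, 5.04 to 5.08 on the VAD 25-week arrays and 4.83 to 5.01 on the control arrays. The median log2 difference of the 9 from control was 0.17 at 18 weeks and 0.21 at 25 weeks.

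Over the 7 arrays outside the pair, Piwil1 correlated with Piwil2 at 0.93, with Tdrd9 at 0.90 and with Asz1 1424939_at at 0.91, and Piwil2 with Tdrd9 at 0.94. Gtsf1 1452967_at ran against Asz1 1424939_at, at -0.94. These arrays share their groups, so a correlation among them describes the same differences between groups. Among 13607 named genes, those most like Piwil1 over these arrays were Tmem30c, Nadk, Hacd3 and Trim68, with r of 0.990 to 0.995. Those most like Piwil2 were Akap8, Eef1a1, Fxyd2 and Psmg1, with r of 0.986 to 0.994, and those most like Gtsf1l were Sema4a, Cldn5, Gpr135 and Olfr701, with r of 0.971 to 0.984. None of these 12 is in the list of other pathway genes, but that list holds only 23 of the 13607 genes, so this absence says little.

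**Figure D5:**
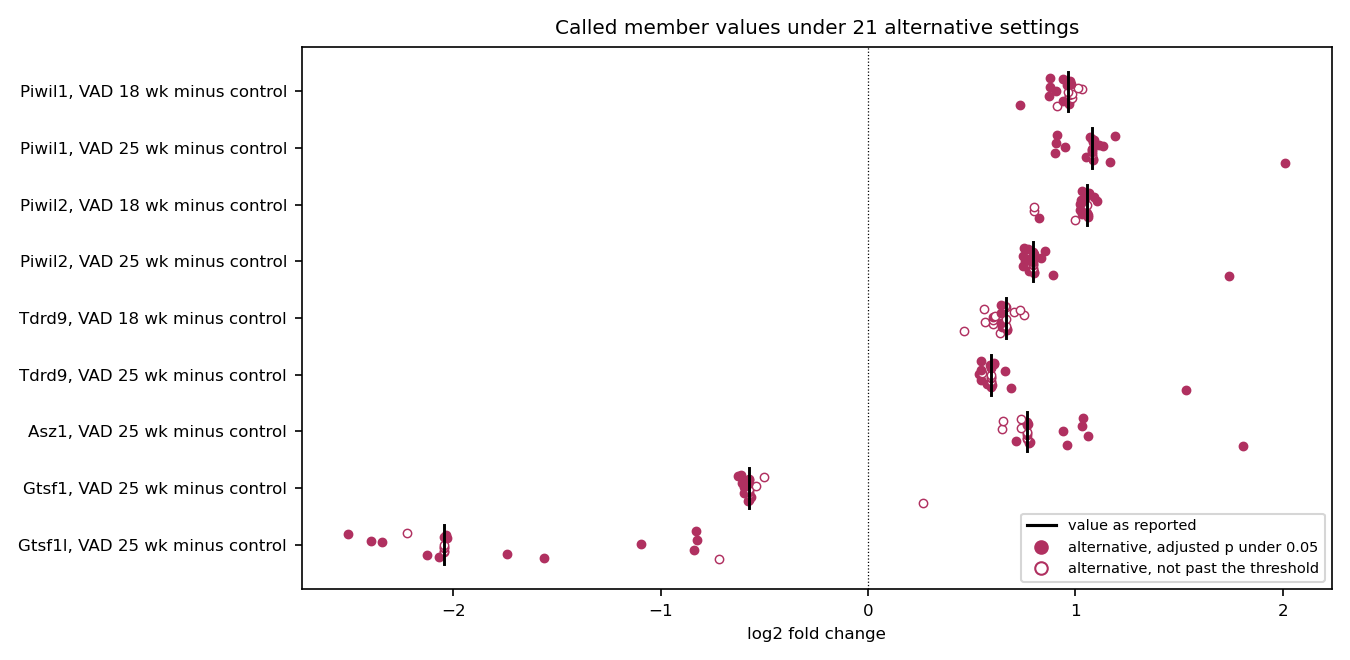
Log2 differences of the called member values (horizontal axis) under the model as reported and under each alternative setting, filled where the adjusted p is under 0.05. All alternatives keep the direction of Piwil1, Piwil2, Tdrd9, Asz1 1424939_at and Gtsf1l, and Gtsf1 1452967_at turns to 0.27 on the deposited scaling.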

How the data were processed

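The deposited values are MAS5 intensity on a linear scale, 1 per probe set and array, per the submitters' processing notes. Neither the MAS5 version nor its scaling target is given here. Here they were transformed as log2(intensity + 3.26), the pseudocount being the 25th percentile of all deposited values, so that differences of low signals are understated, and quantile normalized between arrays. After that the 64 control probe sets were dropped, and a filter kept 27022 of 45101 rows, those with a mean of at least the 40th percentile.

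All 9 arrays entered 1 limma model (version 3.58.1, R 4.3.3, moderated with a variance trend) with group and a term for arrays of low signal, leaving 5 residual degrees of freedom. Low signal meant a trimmed mean, without the top and bottom 2%, of less than 0.5 times that of the median array. The threshold was an adjusted p of 0.05. Scripts were tested on simulated data.

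The members, lists and this term were chosen with earlier results of these data known. All members are given. Of the other pathway genes, up to 6 called genes per comparison with the smallest p are named, each by its brightest kept probe set, and 4 genes by likeness for Piwil1, Piwil2 and Gtsf1l. Promoters are from RefSeq. Leydig cell, macrophage and peritubular myoid markers were also counted. Of 4, 5 and 4 that passed the filter, 0 were called at 18 weeks. At 25 weeks 1, 4 and 0 rose, where 17% of all named genes were called. Alternatives covered the scaling, pseudocount, filter, array term, replicate block, variance trend, array weights and each array left out.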

Additional observations from a re-analysis of the deposited data

How the results depend on the processing

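Of 693 member values under 21 alternatives, 600 kept their direction and side of the threshold, 51 lost a call, 6 gained one and 36 turned sign. Without the term for the low-signal pair, or with a replicate block in its place, 0 members were called at 18 weeks and 0 at 25 weeks. A replicate block beside that term left 1 call at 18 weeks (Piwil2, adjusted p = 0.047) and 5 at 25 weeks. Groups share replicate numbers, but same-numbered arrays correlated in their deviations from the group means at only -0.0047 to 0.075 between VAD 18-week and control and at 0.00056 to 0.034 between 25 and 18 weeks. Between VAD 25-week and control they did at 0.519 to 0.690, as did arrays numbered 1 and 2 with each other (0.529 and 0.540), so the numbers were not taken as pairs. The deposited scaling left 0 calls at 18 weeks and the model with no trend in the variance 0 at 18 weeks and 2 at 25 weeks. Leaving out 1 array gave 1 to 4 calls at 18 weeks (1 without control replicate 1 or 2) and 3 to 6 at 25 weeks (3 without control replicate 1). Between 25 and 18 weeks array weights gave 1 call and leaving out 1 array 0. Over all probe sets the calls were 394 and 3999, and leaving out 1 array gave 37 to 1038 and 1788 to 4173. Gtsf1l at 25 weeks ranged from -2.51 to -0.72 over the alternatives.

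Only 1 called value turned sign, Gtsf1 1452967_at at 25 weeks, 0.27 on the deposited scaling, which moved the median of all probe sets to 0.12 at 18 weeks, 0.93 at 25 weeks and 0.82 between them. The other reversals were of values that had not passed. On the deposited scaling they were Tdrd1 at 18 weeks (0.13) and, at 25 weeks, Tdrd1 (0.73), Asz1 1422402_a_at (0.47) and Gtsf1 1441836_x_at (0.60). On that scaling, between 25 and 18 weeks, they were Piwil2 (0.74), Tdrd1 (0.60), Tdrd9 (0.90), Asz1 1422402_a_at (0.19), Gtsf1 1452967_at (0.71) and Gtsf1l (0.070). After median centring they were Ddx4 at 18 weeks (-0.16), Mael at 25 weeks (-0.26), and, between 25 and 18 weeks, Piwil2 (0.068), Tdrd9 (0.23) and Gtsf1 1452967_at (0.040). Without the term, and equally with a replicate block in its place, they were Mael (0.64) and Asz1 1422402_a_at (-0.0082) at 18 weeks, and Mael (-0.44), Tdrd1 (0.16) and Ddx4 (-0.075) between 25 and 18 weeks. With the replicate block beside it Tdrd9 was 0.029 between 25 and 18 weeks. Asz1 1422402_a_at at 18 weeks was -0.036 without the pair and -0.066 with array weights. Leaving out 1 array, it ranged from -0.19 to 0.17, Gtsf1 1441836_x_at at 25 weeks from -0.15 to 0.0071, and, between 25 and 18 weeks, Tdrd9 from -0.14 to 0.029 and Ddx4 from -0.020 to 0.064. The cause was not tested.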

Other observations

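Several genes of the pathway separated the low-signal pair from the other 7 arrays more than they separated the diets. Tex15, which encodes a nuclear protein needed for transposon methylation guided by piRNAs, had a log2 level of 5.78 on VAD 25-week replicate 3 and 6.50 on control replicate 3, against 8.32 to 9.30 on the other 7 arrays. Wdr77, a subunit of the arginine methyltransferase complex that marks Piwi proteins for Tudor domains, was at 4.72 and 4.48 on these arrays, against 6.79 to 7.48 on the others. Tex19.2, also in the list of other pathway genes, ran the other way, at 8.81 and 8.18, against 6.69 to 7.51. These 3 genes were chosen after their values were seen, none was called against control at either time, and no test was made of the pair against the other arrays.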
